A study of Saccharomyces cerevisiae with 4 samples.

Results

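The genes described here are DYN1, the heavy chain of cytoplasmic dynein, the dynactin genes ARP1, JNM1 and LDB18, and SHE1, a microtubule protein that restrains dynein, in *Saccharomyces cerevisiae*. They were picked by symbol from 16 tables of mitotic and microtubule genes, each gene once, which gives 5 of the 130 distinct features with values. The series title names microtubule defects of a DIS3 mutant as its subject. RNA from 4 genotypes was selected for poly(A) and sequenced, with 1 library for each. Wild type (WT) was strain BJ2664, mtr3-1 was strain T208, mtr4-1 was strain T188 and dis3mtr, also named rrp44-1 or mtr17-1, was strain T186. All 4 strains, WT included, were raised in YPD at 30 °C up to an OD600 of 0.4, and a shift to 37 °C for 2 h followed before harvest. Each genotype is a single strain, so a difference of genotype and a difference of strain background cannot be told apart.

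Cytoplasmic dynein walks toward the minus ends of microtubules. In budding yeast it is carried on the plus ends of astral microtubules to the cell cortex, where it is anchored and pulls the spindle into the bud neck. Dynactin is the large complex that dynein needs for this work: Arp1, an actin-related protein, forms its short filament, Jnm1 is the counterpart of dynamitin, Ldb18 is the counterpart of the small p24 subunit, and Nip100 is the arm that binds microtubules. She1 binds microtubules and dynein, and limits where dynein is active. The 3 mutants affect the RNA exosome, which trims and degrades RNA from its 3′ end: Mtr3 is a ring subunit, Dis3 is the catalytic subunit, and Mtr4 is a helicase that serves the nuclear exosome.

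The values are the authors' normalized values, in units with a scaling not given in the sources used here. They were compared between libraries of the same gene, never between genes. Without replicates there is no spread to hold a difference against, so no test was made, and the depth behind the values is unknown. The authors called a transcript increased when it was at least 15% above WT and decreased when it was at least 15% below, and "high" and "low" have that meaning only. The median of the 130 features was at 99.2% of WT in mtr3-1, 81.5% in mtr4-1 and 112% in dis3mtr, which are log2 shifts of -0.01, -0.30 and 0.17. In bulk RNA, a different share of cells carrying a transcript and a different amount per cell cannot be told apart.

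DYN1 (YKR054C, chromosome 11, 535 to 547 kb on sacCer2) encodes the motor itself, a very long protein of 4092 residues in the R64 annotation. Its value was 11.7 units in WT, 15.8 in mtr3-1, 10.4 in mtr4-1 and 28.1 in dis3mtr. The dis3mtr library stood highest, at 239.9% of WT (log2 ratio 1.26), and mtr4-1 lowest, at 88.9%, inside the thresholds. The mtr3-1 library was between them at 135% (log2 ratio 0.44). From the highest library to the next the step was 1.77-fold, and between WT and mtr4-1 it was 1.12-fold.

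ARP1 (YHR129C, listed at 363 to 364 kb), the filament subunit of dynactin, was higher than WT in all 3 mutant libraries as deposited, although in mtr4-1 it was below WT (93.8%) relative to the actin gene ACT1. The values were 15.99 units in WT, 30.8 in mtr3-1, 19.9 in mtr4-1 and 42.7 in dis3mtr. WT was the lowest library of the 4, and dis3mtr was again the highest. The percents were 193 in mtr3-1, 125 in mtr4-1 and 267 in dis3mtr (log2 ratios 0.95, 0.32 and 1.42). All 3 percents divide by the same WT library, so they are not independent of each other. The table lists ARP1 on chromosome 3, whereas its systematic name belongs to chromosome VIII, and the kb position matches the annotation there.

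JNM1 (YMR294W, chromosome 13, 856 to 858 kb), the dynamitin counterpart, was nearly level in 3 libraries and lower in mtr3-1. Its value was 24.4 units in WT, 16.04 in mtr3-1, 23.3 in mtr4-1 and 26.2 in dis3mtr. The mtr3-1 library was at 65.8% of WT (log2 ratio -0.60), while mtr4-1 at 95.4% and dis3mtr at 107% lay inside the thresholds. The highest and lowest libraries differed by 1.63-fold, the narrowest range of the 5 genes.

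LDB18 (YLL049W, chromosome 12, 40 to 41 kb), the p24 counterpart, was the one gene of the 5 that was low in dis3mtr. Its value was 84.3 units in WT, 76.7 in mtr3-1, 71.6 in mtr4-1 and 35.6 in dis3mtr. WT, mtr3-1 and mtr4-1 lay close together, and dis3mtr lay 2.01-fold below the nearest of them. It was at 42.2% of WT in dis3mtr (log2 ratio -1.24) and at 91.0% in mtr3-1. In mtr4-1 it was at 84.97%, low by the authors' rule by a margin that the addition of 1 unit to both values removes (85.1%). LDB18 has the shortest coding sequence of the 5, 540 bases in R64, against 12279 for DYN1.

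SHE1 (YBL031W, chromosome 2, 161 to 162 kb), the restraint on dynein, differed in direction between mutants. Its value was 10.6 units in WT, 6.23 in mtr3-1, 10.7 in mtr4-1 and 16.7 in dis3mtr. WT and mtr4-1 were nearly equal, mtr3-1 was below both and dis3mtr above both. The percents of WT were 58.9 in mtr3-1, 101 in mtr4-1 and 158 in dis3mtr (log2 ratios -0.76, 0.02 and 0.66). How many reads lie behind the WT value of 10.6 units is unknown.

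**Figure D1:**
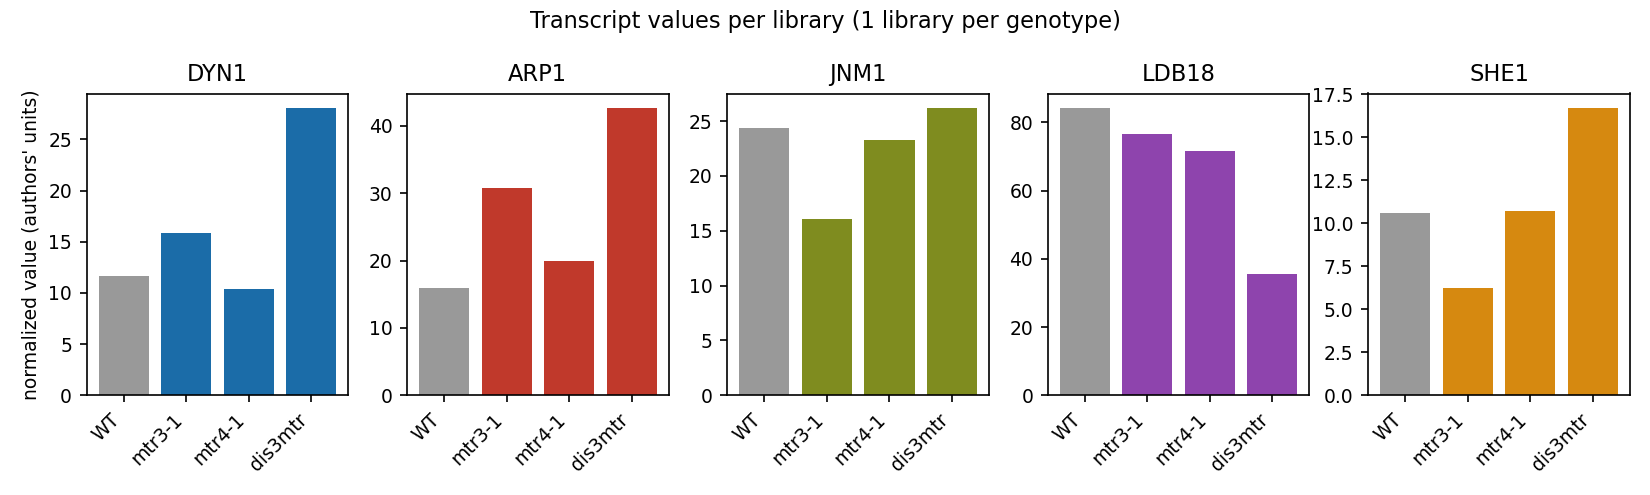
Normalized value (vertical axis, the authors' units, from 0) of each of the 5 transcripts in the 4 libraries, 1 bar per library with WT in grey and no error bar because there is 1 library per genotype. DYN1, ARP1, JNM1 and SHE1 are highest in dis3mtr (28.1, 42.7, 26.2 and 16.7 units), and LDB18 is lowest there (35.6 units).

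In dis3mtr, 3 of the 5 genes were high, DYN1, ARP1 and SHE1, and 46.9% of all 130 features were. LDB18 was the 1 low gene of the 5, in a library where 23.1% of features were low. The median of the 5 genes was 158% of WT, beside 112% over all features. With a stricter limit of 200% or 50% of WT, DYN1 and ARP1 remained high and LDB18 low, and that limit was passed upward by 19.2% and downward by 7.69% of features. ARP1 ranked 14th and DYN1 18th from the top of the 130 features, and LDB18 ranked 7th from the bottom. SHE1 ranked 33rd from the top, and JNM1 77th.

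In mtr3-1, DYN1 and ARP1 were high and JNM1 and SHE1 low, 2 of 5 on each side. Of all features 27.7% were high and 33.1% low, and the members' counts give no result beyond that background. Their median was 91.0%, beside 99.2% over all features. ARP1 ranked 10th from the top, and SHE1 ranked 12th and JNM1 21st from the bottom. None of the 5 passed the 200% or 50% limit, which 6.15% of features passed upward and 6.92% downward.

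In mtr4-1 the 5 genes lay between 84.97% for LDB18 and 125% for ARP1, a 1.47-fold range. The same range was 3.27-fold in mtr3-1 and 6.32-fold in dis3mtr. Such a range rests on the lowest and the highest gene alone. Over all features the lower and upper quartiles were 66.3% and 101% in mtr4-1, 77.7% and 123% in mtr3-1, and 88.4% and 157% in dis3mtr. ARP1 was the 1 high gene, with 14.6% of features high, and LDB18 the 1 low gene, with 57.7% of features low. The median of the 5 genes was 95.4%, above the 81.5% over all features. None passed the 200% or 50% limit, which 3.08% of features passed upward and 5.38% downward.

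**Figure D2:**
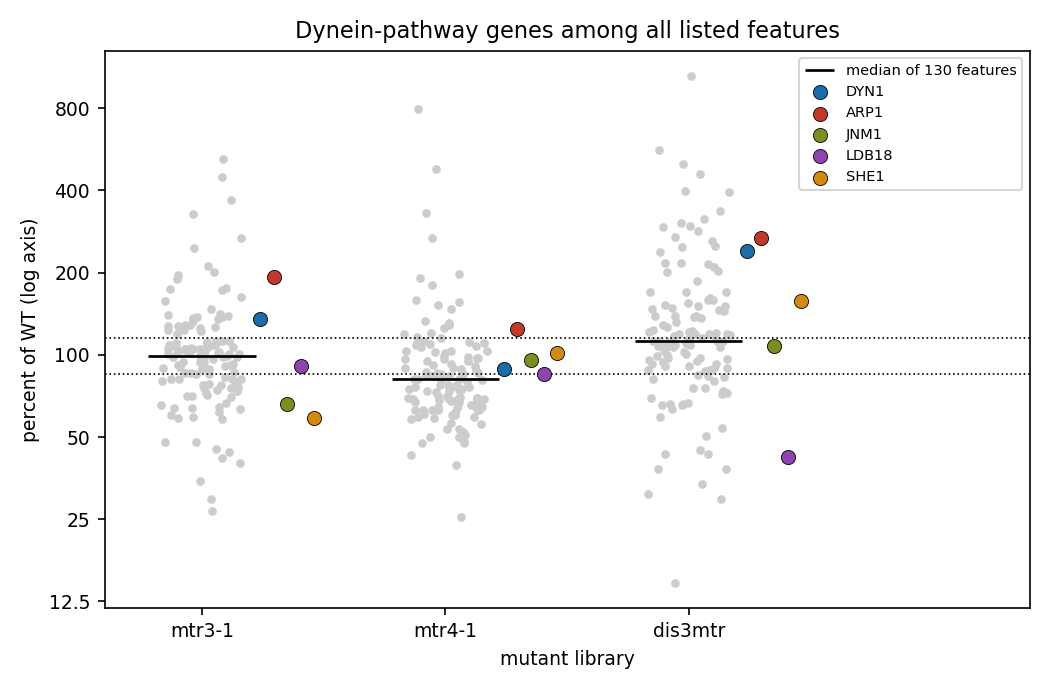
Percent of WT (vertical axis, log scale) in each mutant library, with the other features of the tables as grey points, the median of 130 features as a black line, the 5 genes as coloured points and the limits 15% above and below WT dotted. The 5 genes spread from 42.2% to 267% in dis3mtr and from 84.97% to 125% in mtr4-1.

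Setting the mutants against each other leaves the WT library out. SHE1 was 2.68 times as high in dis3mtr (16.7 units) as in mtr3-1 (6.23 units), the 3rd highest of the 130 ratios. LDB18 was at 0.464 times its mtr3-1 value in dis3mtr, the 3rd lowest ratio. DYN1, JNM1 and ARP1 had ratios of 1.77, 1.63 and 1.38 for the same libraries. The median feature had a ratio of 1.23. At limits 15% above and below equality, which 55.4% of features passed upward and 19.2% downward, 4 of the 5 genes were above and LDB18 below.

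Against mtr4-1, DYN1 was 2.70 times as high in dis3mtr, ARP1 2.14 times, SHE1 1.56 times and JNM1 1.13 times, while LDB18 was at 0.497 times. The median feature was at 1.40 times, so JNM1 and LDB18 lay below it. DYN1 ranked 9th from the top of the 130 ratios, and LDB18 ranked 3rd from the bottom here too. These comparisons share the dis3mtr library, so the low LDB18 ratios rest on the same value of 35.6 units. At the same limits, passed by 74.6% of features upward and 11.5% downward, DYN1, ARP1 and SHE1 were above, JNM1 inside and LDB18 below.

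Between mtr3-1 and mtr4-1, DYN1 and ARP1 were 1.52 and 1.55 times as high in mtr3-1, against 1.17 for the median feature. JNM1 and SHE1 were lower in mtr3-1, at 0.690 and 0.581 times their mtr4-1 values, 10th and 4th from the bottom. LDB18 was at 1.07 times, inside the limits. Of all features 53.8% were at least 15% higher in mtr3-1 and 13.8% at least 15% lower.

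The ratio of a pair of transcripts within a library does not depend on library scaling by a common factor, though the normalization is unknown. Between DYN1 and ARP1, the motor and the dynactin filament subunit, this ratio stayed close to that of WT in dis3mtr, where ARP1 had gained 1.11-fold on DYN1. In mtr3-1 and mtr4-1 ARP1 had gained 1.42-fold and 1.40-fold on DYN1. Among the dynactin genes, relative to WT, the ratio of ARP1 to LDB18 was 6.32 in dis3mtr, 2.12 in mtr3-1 and 1.47 in mtr4-1. The ratio of ARP1 to JNM1 was 2.48 in dis3mtr, 2.93 in mtr3-1 and 1.31 in mtr4-1.

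JNM1 against LDB18 went different ways: the ratio was 2.55 times that of WT in dis3mtr, 0.723 times in mtr3-1 and 1.12 times in mtr4-1. The ratio of DYN1 to its restraint SHE1 was 2.297 times that of WT in mtr3-1 and 1.52 times in dis3mtr, and in mtr4-1 it was 0.877 times. DYN1 against LDB18 was at 5.68 times in dis3mtr, 1.49 in mtr3-1 and 1.05 in mtr4-1. Of the 10 pairs, 6 were shifted at least 2-fold in dis3mtr, 5 in mtr3-1 and 0 in mtr4-1. Over all 8385 pairs of features the shares were 39.8%, 25.2% and 18.0%. The 10 pairs share 5 genes, and 4 of the 6 in dis3mtr contain LDB18. In mtr3-1 the ratio of DYN1 to JNM1, at 2.06, fell to 1.97 when 1 unit was added to each value, which leaves 4 pairs.

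**Figure D3:**
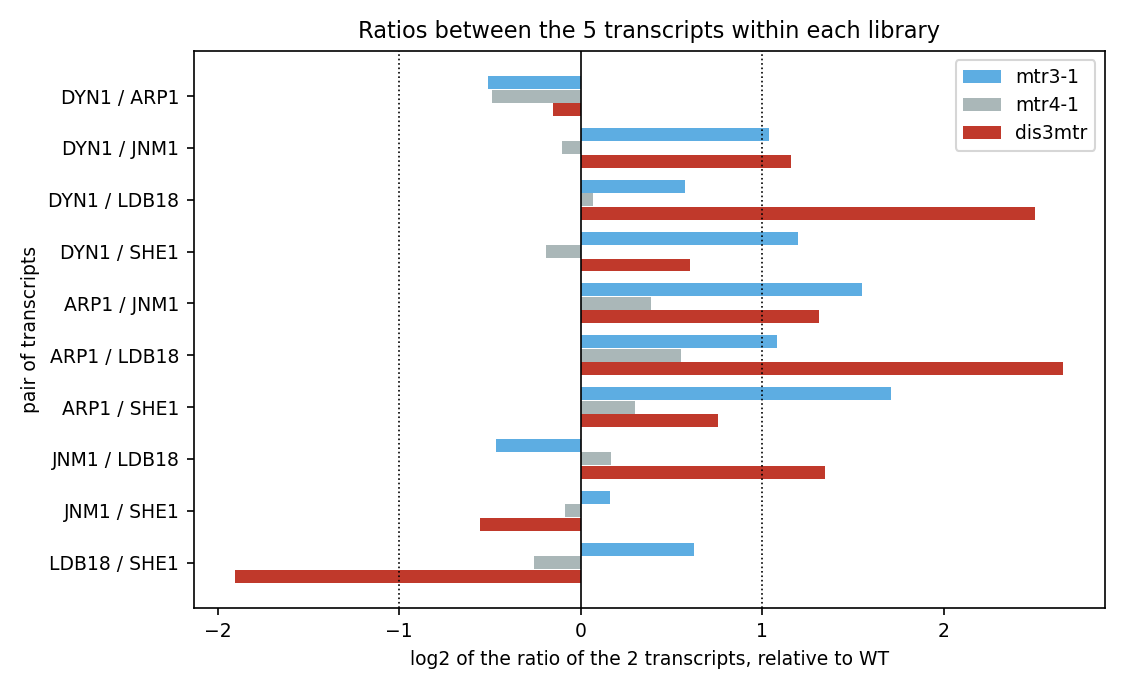
Log2 of the ratio of the first to the second transcript of each pair, relative to the same ratio in WT (horizontal axis), for the 3 mutant libraries, with 2-fold shifts dotted. The longest bars are those of LDB18 against ARP1, DYN1 and SHE1 in dis3mtr (6.32-fold, 5.68-fold and 3.74-fold), and no bar of mtr4-1 exceeds 1.47-fold.

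Because the normalization is not given, the percents were also computed after division by the median feature of each library and after division by ACT1. Both divisions left DYN1, ARP1 and SHE1 high and LDB18 low in dis3mtr, at 213%, 237%, 140.4% and 37.5% by the median and at 202%, 225%, 133% and 35.5% by ACT1. JNM1 stayed inside the thresholds there, at 95.6% and 90.4%. By the median, 36.2% of all features were high and 31.5% low in that library, 27.7% and 32.3% in mtr3-1, and 33.1% and 33.8% in mtr4-1. ARP1 in mtr3-1 was at 194% and 156%. DYN1 in mtr3-1 was at 136% by the median but at 109.7%, inside the thresholds, by ACT1. JNM1 and SHE1 stayed low in mtr3-1, at 66.3% and 59.4% by the median. In mtr4-1 the calls depended on the scaling for all 5 genes. By the median, ARP1, JNM1 and SHE1 were high there (153%, 117% and 124%) and DYN1 and LDB18 inside (109% and 104%). By ACT1, ARP1 was inside at 93.8% and the other 4 genes were low, from 63.9% for LDB18 to 76.3% for SHE1. Relative to ACT1, 84.6% of all features were low and 6.92% high in mtr4-1, so the 4 low genes lie at that background. The shares by ACT1 were 13.1% high and 59.2% low in mtr3-1, and 35.4% high and 36.9% low in dis3mtr.

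**Figure D4:**
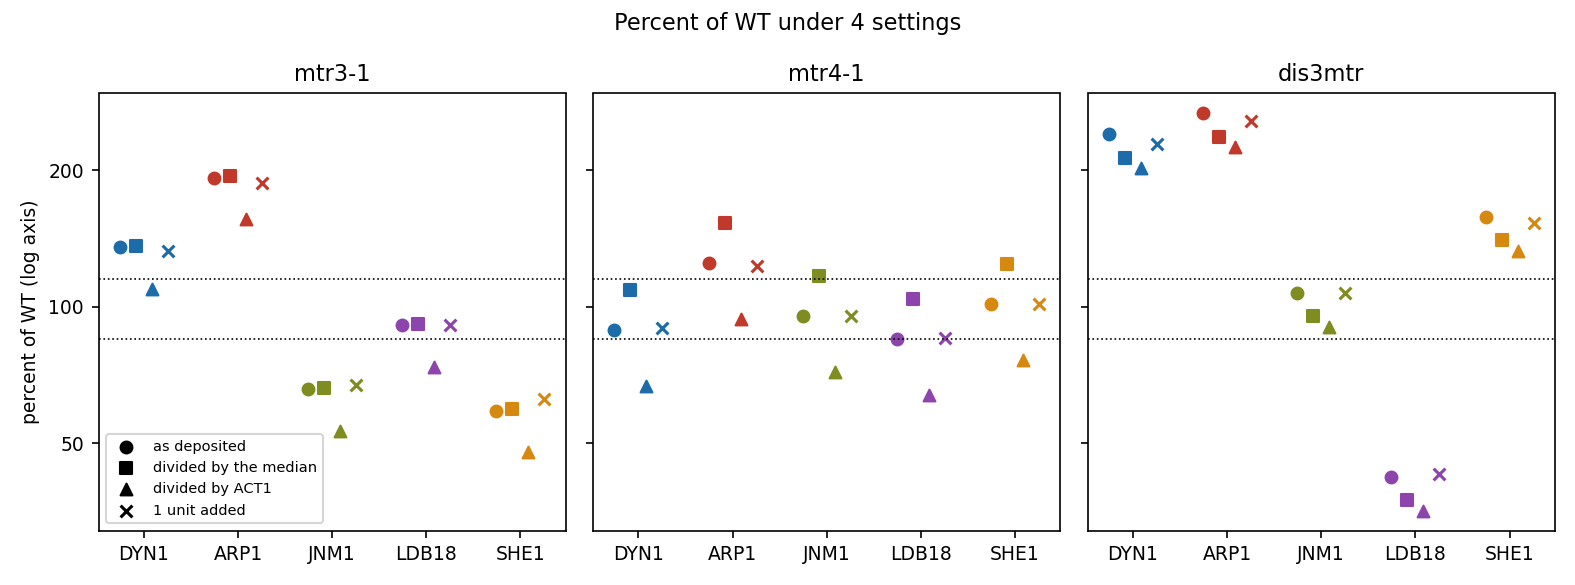
Percent of WT (vertical axis, log scale) of the 5 genes in each mutant library, as deposited (circles), divided by the library's median feature (squares), divided by ACT1 (triangles) and with 1 unit added to both values (crosses), with the limits 15% above and below WT dotted. The dis3mtr values keep their side of the limits under all 4 settings, and the mtr4-1 values do not.

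The features whose profile over the 4 libraries was most like that of each gene were found by the Euclidean distance between log2 values centred on the gene's own mean. Nearest to DYN1 were TAO3, a scaffold of polarized growth, CLA4, a kinase of the p21-activated family, and CDC16, a subunit of the anaphase-promoting complex, at distances of 0.15, 0.21 and 0.30, where the median feature was at 0.95. TAO3 was at 128%, 97.2% and 248% of WT in mtr3-1, mtr4-1 and dis3mtr. Nearest to ARP1 were DOC1, another subunit of the anaphase-promoting complex, HSL7, a regulator of the kinase Swe1, and ASE1, a bundler of spindle midzone microtubules, at 0.23, 0.27 and 0.29 (median 1.07). DOC1 was at 190% of WT in mtr3-1, 147% in mtr4-1 and 304% in dis3mtr. DYN1 and ARP1 were 0.44 apart. ARP1 was the 7th nearest feature to DYN1, and DYN1 the 4th nearest to ARP1.

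For LDB18, the features near it included PAC2, a cofactor of α-tubulin folding, at 0.47 and the modifier URM1 at 0.48 (median 1.35). PAC2 was at 74.5%, 81.9% and 54.2% of WT in mtr3-1, mtr4-1 and dis3mtr. The other 4 genes of the pathway were at distances from 1.34 for JNM1, about that of the median feature, to 2.04 for DYN1. SHE1 was nearest to SFH1, a subunit of the chromatin remodeler RSC, at 0.32, then to JNM1 at 0.53 and to the cyclin CLB2 at 0.60 (median 1.07). JNM1 was nearest to the prefoldin gene GIM3, the checkpoint gene DDC1 and the checkpoint gene MAD1, at 0.22, 0.23 and 0.29 (median 0.82). SHE1 was only the 16th nearest feature to JNM1. With 4 libraries and no replicate, these distances describe the libraries only.

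Of 10 other genes of the dynein pathway on a list of known members, 1 had values. This was BIK1, a plus-end protein that helps to carry dynein, at 47.7 units in WT, 37.1 in mtr3-1, 24.97 in mtr4-1 and 47.7 in dis3mtr. BIK1 was thus low in mtr3-1 (77.8%) and mtr4-1 (52.3%) and level with WT in dis3mtr (99.9%, or 84.0% relative to ACT1), the library in which DYN1 and ARP1 were highest. NIP100, the dynactin arm, is listed in the tables without values. DYN2, DYN3, PAC11, PAC1, NDL1, NUM1, ARP10 and KIP2 are not analysed here.

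The Kar9 pathway orients the spindle in parallel to dynein, and 3 of its 5 listed genes had values. KIP3, the kinesin that depolymerizes microtubule ends, was at 119% of WT in mtr3-1, 103% in mtr4-1 and 285% in dis3mtr, where it stood beside DYN1 and ARP1. BIM1, the plus-end protein that binds Kar9, was at 47.9%, 43.1% and 65.9% in the same order. MYO2, the myosin that draws Kar9 along actin cables, was at 72.7%, 67.1% and 108%. CIK1, the partner of the minus-end kinesin Kar3, was at 108%, 152% and 260%. Relative to ACT1, CIK1 was inside the thresholds in mtr4-1 (114.6%), and KIP3 was inside in mtr3-1 (96.8%) and low in mtr4-1 (77.8%). By the median, CIK1 in mtr4-1 (187%) and KIP3 in mtr3-1 (120%) and mtr4-1 (127%) were high. In dis3mtr, KIP3 was the 1 high gene and BIM1 the 1 low gene of the 3 Kar9-pathway genes. Of all features 46.9% were high in that library and 23.1% low, so these counts give no result beyond that background.

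Among microtubule proteins that act beside She1, 4 of 6 listed genes had values, TUB1, TUB2, TUB3 and ASE1, and all 4 were high in dis3mtr, at 138%, 152%, 122% and 203%, in a library where 46.9% of all features were high. TUB3 was inside the thresholds at 109% after division by the median and at 103% relative to ACT1. In mtr3-1 ASE1 was high at 174% and the tubulin genes were inside the thresholds, while SHE1 was low. Relative to ACT1, TUB1 and TUB3 were also low in mtr3-1 (84.95% and 79.6%). Of 6 genes listed for the spindle position checkpoint, which delays mitotic exit while the spindle is misplaced, 5 had values. The list does not part genes that act for the checkpoint from genes that act against it. BFA1 and BUB2, which inhibit mitotic exit together, were high in every mutant under both divisions as well. Their WT values were 4.13 and 13.8 units. All percents of a gene divide by the same WT value, so they are not independent of each other. Of all features as deposited, 27.7% were high in mtr3-1, 14.6% in mtr4-1 and 46.9% in dis3mtr. KIN4 and LTE1 were also high in every mutant as deposited, but relative to ACT1 they were inside the thresholds in mtr3-1 (both 103%) and mtr4-1 (94.0% and 98.5%). LTE1 was at 4.48 units in WT. SPC72, the anchor of astral microtubules at the spindle pole, was low in every mutant as deposited, and in mtr4-1 its 81.8% moved to 100.4% after division by the median. The tables list BIM1, BFA1, BUB2, KIN4, SPC72, MAD1 and the tubulin genes with spans of 5 kb, wider than their coding sequences, and how that bears on their values was not tested. The listed spans of the 5 dynein-pathway genes match their coding sequences within 1 kb.

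**Figure D5:**
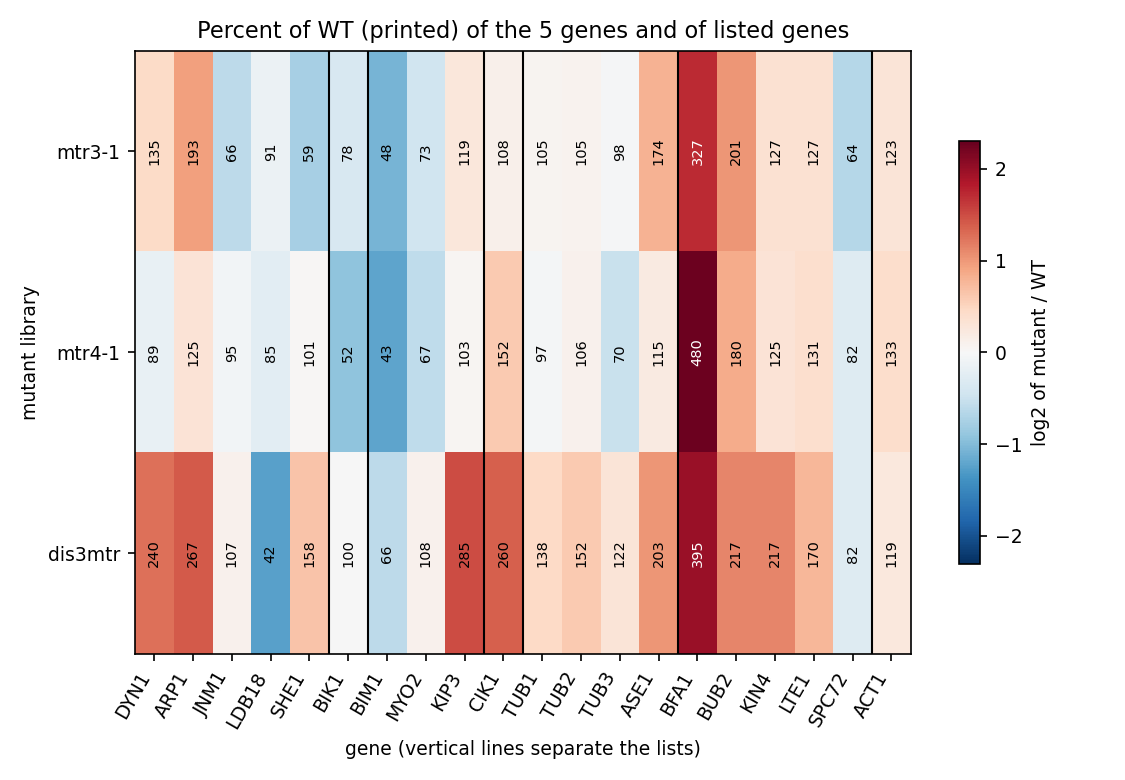
Log2 of the mutant over the WT value (colour, scale at right) and percent of WT (printed) for the 5 genes and the listed genes with values, with vertical lines between lists and 1 row per mutant library. LDB18 is the deepest blue of the dis3mtr row (42.2%). BFA1 (395%) is the highest of that row, followed by KIP3 (285%), ARP1 (267%), CIK1 (260%) and DYN1 (239.9%).

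DYN1, ARP1, JNM1 and LDB18 belong to the authors' table on orienting the mitotic spindle, and DYN1 and SHE1 to that on spindle elongation. In the former, 10 of 12 entries held values and 4 of these were dynein-pathway genes. The mean percent in dis3mtr was 174 with those 4 and 181 without them, since LDB18 and JNM1 offset DYN1 and ARP1. In mtr3-1 the means were 127 and 130.3, and in mtr4-1 98.8 and 99.1. For mtr4-1 the authors' deposited table counts 3 increased, 4 decreased and 7 unchanged transcripts in this term, 14 in all for 12 entries. Recounting the entries gave 3 increased and 3 decreased, LDB18 at 84.97% among the latter. In the spindle elongation table, the mean percent in dis3mtr was 169 with DYN1 and SHE1 and 166 without them. There the authors' counts were 9 decreased in mtr3-1 and 3 increased in mtr4-1. Recounting the 22 of 23 entries with values gave 8 and 2.

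By the R64 annotation no other annotated gene overlaps the coding sequence of any of the 5. LDB18 has the closest neighbour, YBT1, which lies 74 bases beyond its end and is transcribed toward it. The neighbours of DYN1, ARP1, JNM1 and SHE1 are at least 172 bases away. Transcript ends were not examined, so whether those of LDB18 and YBT1 overlap is unknown. Use of strand in the counting was not given in the sources used here. Without it, reads of any such overlap could not be told apart. How this bears on the LDB18 values was not tested.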

How the data were processed

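RNA was poly(A)-selected, barcoded with 3 bases and sequenced for 36 cycles in a single GAIIx lane, per the labels' protocols. The submitters' processing notes name Bowtie and sacCer2. Counting, strand use, normalization and depth were not given in the sources used here. Deposited by the authors were normalized values, a signal per gene and library, and each mutant's percent of WT. The deposited percents equalled 100 times the ratio of the values within 1e-13.

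Of 190 entries in 16 tables, 175 held values, in 130 distinct sets of values, each counted once. For 106 of these, name, start and end matched the R64 annotation within 1 kb and no other ORF shared the values. Positions are printed as listed on sacCer2. R64 is another build and gave only lengths and neighbouring genes. No sequence is printed for the same reason.

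Percents, ratios between mutants, ratios between genes and profile distances were computed with Python 3.11.15, pandas 2.3.3 and NumPy 2.4.6, and the code was tested on simulated data. Alternatives were division by the median feature or by ACT1, 1 unit added, 2-fold limits and a mean of at least 5 units. With 1 library per genotype no test was possible. The genes and lists were chosen with earlier results of these data known. Named genes are the 5 genes, the 3 nearest features of each except 1 not reported here, and every list gene with values.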

Additional observations from a re-analysis of the deposited data

Results flagged for a closer look

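SHE1 stood out because it was high in one mutant library and low in another. SHE1 was at 158% of WT in dis3mtr and at 58.9% in mtr3-1, a ratio of 2.68 between those libraries (16.7 and 6.23 units). The difference was not tested, since each genotype has 1 library. The ratio was 2.18 after division by the median feature, 2.78 after division by ACT1 and 2.45 with 1 unit added to both values.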

How the results depend on the processing

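No paired analysis was possible because each genotype has 1 library; leaving out a replicate was not possible for the same reason. Calls use the authors' limits, since no replicate spread exists. Division by the median feature reversed LDB18 in mtr4-1 (104%), brought JNM1 and SHE1 above the limit there (117% and 124%), and took the dis3mtr over mtr3-1 ratio of ARP1 (1.13) and the dis3mtr over mtr4-1 ratio of SHE1 (1.11) inside and that of JNM1 (0.804) below. Division by ACT1 reversed ARP1 in mtr4-1 (93.8%), took DYN1 in mtr3-1 inside (109.7%), made DYN1, JNM1 and SHE1 in mtr4-1 (66.9%, 71.8% and 76.3%) and LDB18 in mtr3-1 (73.8%) low, and put the ratio of JNM1 in dis3mtr over mtr4-1 (1.26) and of LDB18 in mtr3-1 over mtr4-1 (1.154) above. Adding 1 unit took LDB18 in mtr4-1 inside (85.1%) and the DYN1 to JNM1 shift in mtr3-1 below 2-fold (1.97). LDB18 was also low in mtr4-1 after division by ACT1. The mtr4-1 shifts follow from the divisors themselves, 81.5% for the median and 133% for ACT1.

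With 2-fold limits the members past them were 0 high and 0 low in mtr3-1, 0 and 0 in mtr4-1, and 2 and 1 in dis3mtr. At the authors' limits dis3mtr had 3 and 1, and SHE1 is the gene that dropped out. All features past the 2-fold limits were 8 and 9, 4 and 7, and 25 and 10. After division by the median, mtr4-1 had 3 members high and 0 low, and 43 features high and 44 low. Counting every table entry gave 56 high in mtr3-1 out of 175 entries with values, beside 36 out of 130 features. A limit to features with a mean of 5 units or more left 128 of the 130, so those counts could hardly move. A limit to the 106 features with matching name and position was added after seeing the data. Both kept every feature count within 1.5 times. Of the 106, 26.4% were high and 33.0% low in mtr3-1. The shares were 12.3% and 59.4% in mtr4-1, and 44.3% and 21.7% in dis3mtr. Without depth, no counting error could be attached to any value.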
